A study of Arabis alpina with 27 samples.

Results

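The laccases are a gene family of multicopper oxidases, and the genes described here are the *A. alpina* homologs of LAC2, LAC3, LAC4, LAC5, LAC6, LAC7, LAC10, LAC11, LAC12 and LAC17 of *A. thaliana*. Members were found by the *A. thaliana* locus that the deposited table gives for each *A. alpina* gene. Of these 10 loci, 7 matched 1 gene each among the 21641 genes of the table. They were LAC3 (Aa_G35450, AT2G30210), LAC4 (Aa_G150750, AT2G38080), LAC5 (Aa_G268070, AT2G40370), LAC7 (Aa_G101340, AT3G09220), LAC10 (Aa_G443010, AT5G01190), LAC11 (Aa_G456340, AT5G03260) and LAC17 (Aa_G33960, AT5G60020). No gene was matched to LAC2, LAC6 or LAC12, which were not analysed here. All 7 members passed the filter on low counts. Symbols below are those of the *A. thaliana* homologs.

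PolyA RNA of *A. alpina* ecotype Pajares was measured in 27 libraries, 3 biological replicates in each of 9 groups, from the piece of main stem below the rosette where adventitious roots form. All plants first grew for 8 weeks in long days (LD) in a warm greenhouse. The groups are plants sampled at that point (0w), plants still in cold at 4°C, also in LD, after 4 weeks (4w), 8 weeks (8w), 12 weeks (12w), 16 weeks (16w) or 21 weeks (21w), and plants moved back to warm LD for 5 days from 12 weeks (12w+5dLD), 16 weeks (16w+5dLD) or 21 weeks of cold (21w+5dLD). Each library was made from stem pieces pooled from several plants, and all plants were of 1 wild-type accession. No plants of the same age kept warm were sequenced, so that against 0w the effect of cold and that of plant age cannot be told apart. The same holds for 5 days of added age in the comparisons of returned plants with plants at the end of cold.

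Laccases are secreted into the cell wall, where they use oxygen to oxidise monolignols, the phenolic alcohols that then couple to form lignin. Lignin stiffens and waterproofs the secondary walls of xylem vessels and fibres, the woody cells of a stem. In *A. thaliana*, LAC4 (also called IRX12), LAC17 and LAC11 are the laccases known for polymerising lignin in stem xylem and fibres, and LAC10 and LAC5 also take part in lignification. LAC3 is found at the Casparian strip, the lignin ring of the root endodermis. The *A. thaliana* family is also known as a target of microRNAs that accumulate when copper is scarce, with miR397 acting on LAC4 and LAC17, miR408 on LAC3 and miR857 on LAC7. Mature microRNAs are not measured in polyA libraries.

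Library totals ran between 16.1 M and 22.5 M counts (M, mega) with a median of 19.2 M. Levels are given in CPM, a gene's count scaled to the total of its library, with library sizes adjusted by TMM, and no gene length was at hand, so levels are compared between groups and not between genes. The 7 members have 189 values in the 27 libraries, of which 26 are listed at 0 and the others lie between 50 and 8297 counts. No member has a value between 0 and 50 counts, and genes with a mean above 10 CPM are also listed at 0 in some libraries, so a 0 here is a listed value and not proof of an absent transcript. LAC10 is listed at 0 in 11 libraries, LAC5 and LAC11 in 5 each, LAC7 in 3, LAC17 in 2 and LAC3 and LAC4 in none. Over the 1000 most variable genes, 19 of the 27 libraries correlated better with the mean of another group than with the mean of the other libraries of their own. The own mean left out the library itself and so held fewer libraries, and the closest of all other groups was taken. Both tilt this count towards another group. The largest gap was that of 21w+5dLD replicate 3, which correlated at 0.54 with 21w and at 0.34 with its own group. The second largest gap was 0.0996.

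LAC4 was lower than at 0w in every cold group, was lowest at 12w and was higher again after return from 12 and 16 weeks of cold. In the 3 libraries of a group, LAC4 measured 500, 375 and 382 CPM at 0w, 51.7, 56.4 and 72.5 CPM at 4w, 7.61, 31.7 and 39.1 CPM at 8w, 5.75, 27.0 and 17.8 CPM at 12w, 48.8, 23.3 and 39.4 CPM at 16w and 70.7, 126 and 75.9 CPM at 21w. Every cold library lay below every 0w library. A gene was called where the adjusted p of edgeR's quasi-likelihood test, Benjamini-Hochberg over the 19337 genes tested, was under 0.05 and the change at least 2-fold. By this test LAC4 fell at 4w (−2.80 on the log2 scale, SE 0.58, adjusted p = 0.00104), at 8w (−4.00, SE 0.61, adjusted p = 5.09e-05), at 12w (−4.63, SE 0.63, adjusted p = 1.35e-05), at 16w (−3.49, SE 0.60, adjusted p = 0.000135) and at 21w (−2.20, SE 0.56, adjusted p = 0.00611). The means were 16.8 ± 10.7 CPM at 12w and 419 ± 70.5 CPM at 0w (SD, n = 3 each), a level 24.8-fold lower at 12w by the fit. In these whole stem pieces, fewer cells of a type and less RNA per cell cannot be told apart.

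After 5 days back in LD, LAC4 measured 57.8, 168 and 229 CPM in 12w+5dLD plants, 176, 172 and 274 CPM in 16w+5dLD plants and 175, 156 and 106 CPM in 21w+5dLD plants. All libraries returned from 12 or 16 weeks lay above all libraries at the end of the same cold, while 21w+5dLD and 21w overlapped. LAC4 rose 9.0-fold in 12w+5dLD against 12w plants (log2 fold change 3.17, SE 0.59, adjusted p = 0.000568) and 5.59-fold in 16w+5dLD against 16w plants (2.48, SE 0.57, adjusted p = 0.00315). At 21w+5dLD against 21w the log2 fold change was 0.68 (SE 0.54, adjusted p = 0.583), with means of 146 ± 35.5 and 90.9 ± 30.5 CPM (SD, n = 3 each). Against 0w, all returned libraries were lower, but no returned group passed the test, with log2 fold changes of −1.47 at 12w+5dLD (adjusted p = 0.0787), −1.01 at 16w+5dLD (adjusted p = 0.236) and −1.52 at 21w+5dLD (adjusted p = 0.0609). By DESeq2, 12w+5dLD (adjusted p = 0.0259) and 21w+5dLD (0.0176) passed. In order of the mean LAC4 level, neighbouring groups overlapped, except that 0w stood apart from 16w+5dLD and 4w apart from 16w.

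**Figure D1:**
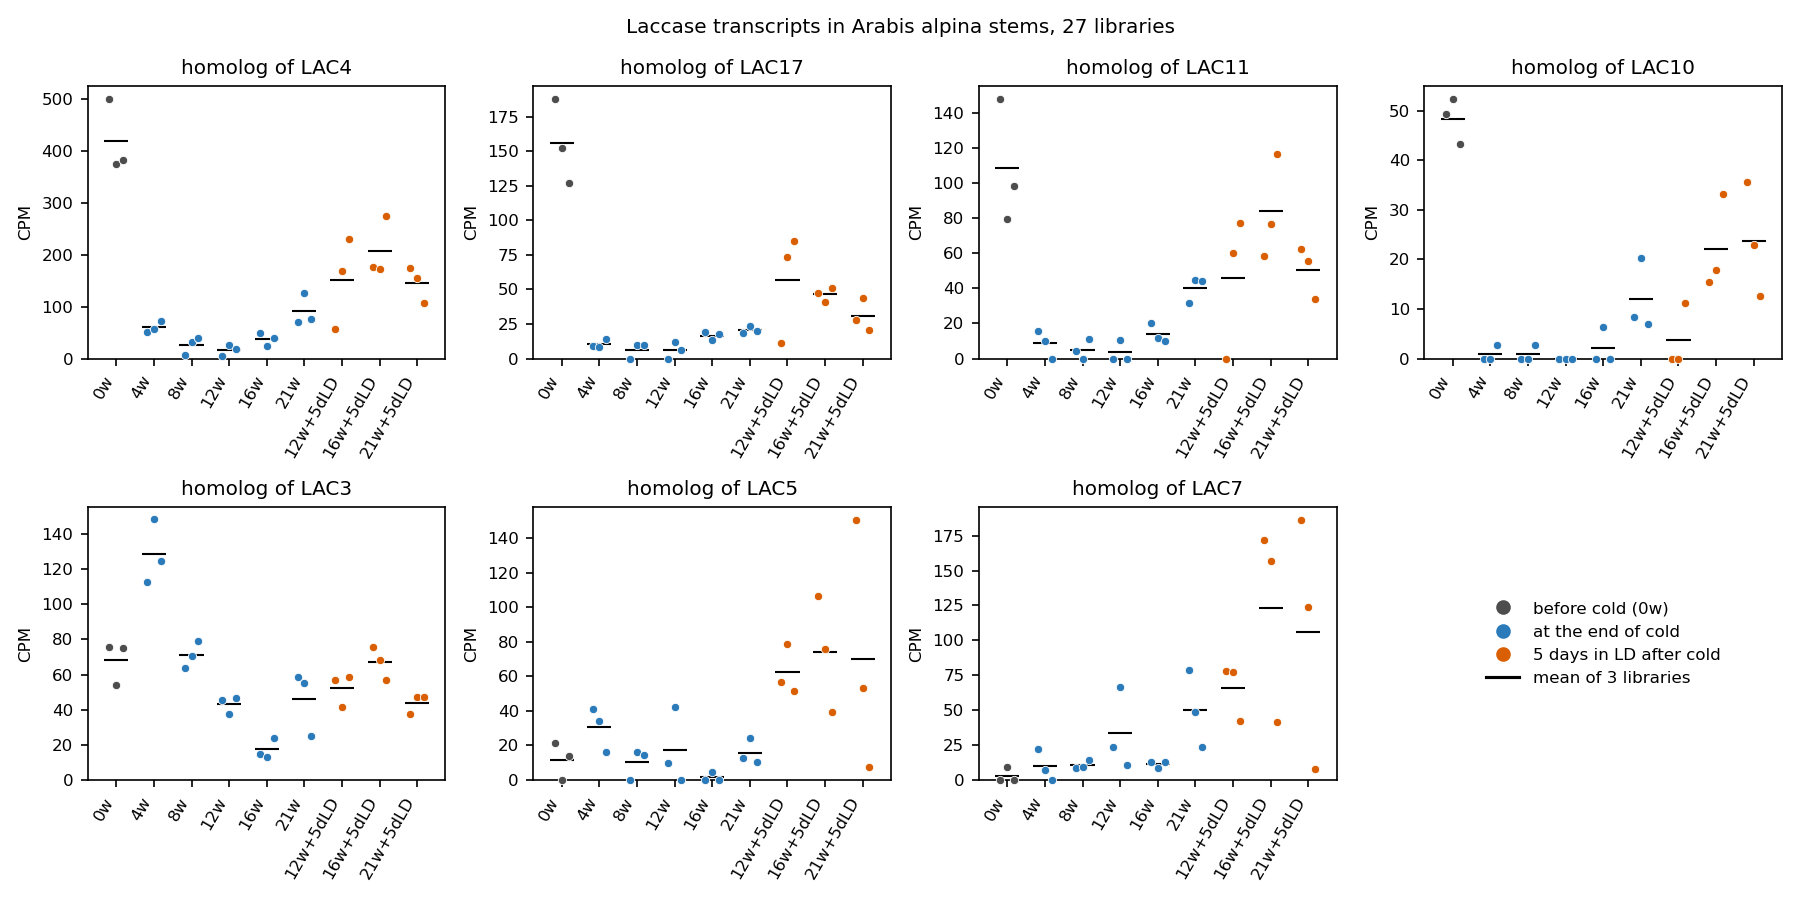
Level of each laccase homolog in CPM (y axis, scaled as labelled in the plot) in the 9 groups (x axis), with 1 point per library and the mean of 3 libraries. LAC4, LAC17, LAC11 and LAC10 have their highest mean at 0w and their lowest at 12w, LAC3 its highest at 4w and its lowest at 16w, and the highest means of LAC5 and LAC7 are those of 16w+5dLD plants.

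LAC17, the partner of LAC4 in *A. thaliana* stem lignification, was also highest at 0w and lowest at 12w, with more spread relative to its mean. LAC17 measured 188, 152 and 127 CPM at 0w, 8.89, 8.07 and 13.9 CPM at 4w, 0, 9.49 and 9.95 CPM at 8w, 0, 12.0 and 6.33 CPM at 12w, 18.9, 13.6 and 17.4 CPM at 16w and 18.4, 23.2 and 19.9 CPM at 21w. Every cold library lay far below the lowest 0w library. LAC17 fell at 4w (−3.92 on the log2 scale, SE 1.20, adjusted p = 0.0175), at 8w (−4.58, SE 1.24, adjusted p = 0.00713), at 12w (−4.67, SE 1.24, adjusted p = 0.00625) and at 16w (−3.23, SE 1.16, adjusted p = 0.0352). At 21w it missed the threshold (−2.93, SE 1.14, adjusted p = 0.0632), although the groups did not overlap. With only the groups compared, the calls at 8w (adjusted p = 0.0609) and 12w (0.0658) were lost and 21w passed (0.00169). The call at 4w was lost without 4w replicate 1 (adjusted p = 0.0637) or 2 (0.0633). The call at 16w was lost without 0w replicate 1 (adjusted p = 0.0745) or 2 (0.0590) and without 16w replicate 1 (0.0794), 2 (0.101) or 3 (0.0889).

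In returned plants LAC17 measured 11.3, 73.5 and 84.9 CPM at 12w+5dLD, 47.7, 41.2 and 50.8 CPM at 16w+5dLD and 27.7, 43.9 and 20.6 CPM at 21w+5dLD. The 12w+5dLD library at 11.3 CPM, replicate 1, lay below the highest 12w library. LAC17 rose in 12w+5dLD against 12w plants (log2 fold change 3.21, SE 1.16, adjusted p = 0.0474), a call that was lost without 12w replicate 1 (adjusted p = 0.0837) or 3 (0.113) and without 12w+5dLD replicate 2 (0.0997) or 3 (0.120). At 16w+5dLD against 16w the log2 fold change was 1.48 (adjusted p = 0.343, or 0.00478 with only the groups compared), with no overlap between the groups, and at 21w+5dLD against 21w it was 0.58 (adjusted p = 0.894). In the order of LAC17 levels only 0w stood apart from its neighbour.

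LAC11, another lignin laccase of xylem, was highest at 0w but passed the test in no comparison. It measured 148, 79.2 and 98.1 CPM at 0w, 15.6, 10.1 and 0 CPM at 4w, 4.05, 0 and 11 CPM at 8w, 0, 10.7 and 0 CPM at 12w, 20.5, 11.8 and 10.2 CPM at 16w and 31.8, 44.8 and 44.1 CPM at 21w. All cold libraries lay below all 0w libraries, and 21w was the only cold group to stand clear above its neighbour in the order of levels, 16w. The test gave a log2 fold change of −4.91 at 12w against 0w (SE 1.94, adjusted p = 0.0563), against an SE of 0.63 for LAC4. Without 12w replicate 2, the only 12w library with a LAC11 value above 0, the adjusted p was 0.00617. LAC11 also passed at 12w by DESeq2 (adjusted p = 0.0267) and, with only the groups compared, at 16w (0.00379) and 21w (0.0185). In returned plants LAC11 measured 0, 60.1 and 77.2 CPM at 12w+5dLD, 58.3, 76.8 and 116 CPM at 16w+5dLD and 62.2, 55.3 and 34.0 CPM at 21w+5dLD. The log2 fold changes were 3.66 at 12w+5dLD against 12w (adjusted p = 0.154) and 2.56 at 16w+5dLD against 16w (adjusted p = 0.298, or 0.0106 with only the groups compared).

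LAC10 measured 49.3, 52.4 and 43.3 CPM at 0w, 0, 0 and 2.83 CPM at 4w, 0, 0 and 2.66 CPM at 8w, then 0 CPM in every 12w library, 0, 6.29 and 0 CPM at 16w and 8.47, 20.3 and 7.02 CPM at 21w. Every cold library lay below every 0w library, and 21w was the only cold group with LAC10 above 0 in all libraries. LAC10 was called lower at 12w (adjusted p = 0.0135). Against a floor of 3 counts per library the level at 12w was at least 287-fold lower, but the smallest LAC10 value above 0 is 50 counts, and against a floor of 50 counts it was at least 17.2-fold lower. The other cold groups did not pass the test, with log2 fold changes of −5.67 at 4w (adjusted p = 0.0967), −5.74 at 8w (adjusted p = 0.0865), −4.53 at 16w (adjusted p = 0.144) and −2.02 at 21w (adjusted p = 0.530). Each of the first 3 passed without its only library above 0 (4w replicate 3, 0.0405, 8w replicate 3, 0.0377, and 16w replicate 2, 0.0278), 8w also with the replicate block (0.0493), and 21w with only the groups compared (0.0261). In returned plants LAC10 measured 0, 0 and 11.3 CPM at 12w+5dLD, 15.5, 17.9 and 33.2 CPM at 16w+5dLD and 35.7, 22.9 and 12.7 CPM at 21w+5dLD. None of these groups passed the edgeR test against the end of cold, while DESeq2 called 12w+5dLD higher than 12w, where all libraries are at 0 (adjusted p = 3.80e-13).

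Across the 9 group means of log2(CPM + 1), the levels of LAC4, LAC17, LAC11 and LAC10 ran together, with Pearson's r of 0.96 for LAC4 and LAC11, 0.95 for LAC4 and LAC17, 0.91 for LAC4 and LAC10 and 0.85 for LAC10 and LAC17. These are descriptions over 9 points that share libraries. LAC3 correlated with LAC4 at only 0.24.

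LAC3, the Casparian strip laccase of *A. thaliana* roots, had the smallest standard errors of the 7 homologs and another time course. LAC3 measured 75.7, 54.0 and 75.0 CPM at 0w, 113, 148 and 124 CPM at 4w, 63.8, 70.4 and 79.1 CPM at 8w, 45.7, 37.3 and 46.6 CPM at 12w, 15, 13 and 24.1 CPM at 16w and 58.3, 55.4 and 24.9 CPM at 21w. The 4w libraries lay above and the 12w and 16w libraries below all 0w libraries. At 4w the log2 fold change was 0.91 (SE 0.26, adjusted p = 0.0121), which is 1.88-fold and under the size required for a call. LAC3 fell 3.92-fold at 16w against 0w (log2 fold change −1.97, SE 0.27, adjusted p = 1.49e-05) and did not pass at 8w (0.06, adjusted p = 0.907), 12w (−0.66, adjusted p = 0.0573) or 21w (−0.56, adjusted p = 0.118).

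LAC3 was the member that separated the cold durations from one another most clearly. It was 2.78-fold lower at 21w than at 4w (−1.48 on the log2 scale, SE 0.27, adjusted p = 0.00113) and 2.66-fold higher at 21w than at 16w (1.41, SE 0.27, adjusted p = 0.00572). In the F test over the 5 cold durations LAC3 had an adjusted p of 1.29e-05 and LAC4 of 0.0245, and the other members lay at 0.177 or above. For 13.9% of all genes tested, the cold durations differed by this test. The LAC4 result was lost without 12w replicate 3 (adjusted p = 0.0513) or 21w replicate 2 (0.0795).

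After return to LD, LAC3 measured 56.7, 41.4 and 58.8 CPM at 12w+5dLD, 75.9, 68.4 and 56.7 CPM at 16w+5dLD and 37.7, 47.1 and 47.4 CPM at 21w+5dLD. Only 16w+5dLD stood apart from the end of its own cold. LAC3 rose 3.86-fold in 16w+5dLD against 16w plants (log2 fold change 1.95, SE 0.27, adjusted p = 8.14e-05), and the log2 fold changes were 0.28 at 12w+5dLD against 12w (adjusted p = 0.496) and −0.07 at 21w+5dLD against 21w (SE 0.26, adjusted p = 0.969). The 21w+5dLD libraries lay below all 0w libraries, and the other returned groups overlapped 0w. The response to return was lower by 2.02 on the log2 scale after 21 than after 16 weeks of cold (SE 0.37, adjusted p = 0.0165 for the interaction, edgeR). Of all genes tested 1.78% had such a difference between these durations, 3.03% between 21 and 12 weeks and 0.0207% between 16 and 12 weeks. Without 21w replicate 1 it was −1.81 with an adjusted p of 0.0515, and with only the groups compared it was not called. Between 16 and 12 weeks the difference of the LAC3 responses was 1.67 (SE 0.37, adjusted p = 0.115). For LAC4, the difference of the responses was −2.49 after 21 compared with 12 weeks (SE 0.78, adjusted p = 0.0864), and it passed without 12w replicate 2 (0.0496) or 12w+5dLD replicate 1 (0.0395). No member passed between 21 and 12 or between 16 and 12 weeks by edgeR, with 1 at an unadjusted p under 0.05 in each, while DESeq2 called 2 in each. These were LAC4 (adjusted p = 0.0134) and LAC10 between 21 and 12 weeks, and LAC3 (0.000739) and LAC10 between 16 and 12. The LAC10 differences of −21.8 and −19.4 by DESeq2 rest on 12w libraries that are all at 0, so their size is no estimate.

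Of the endodermis and root markers, 4 were matched. SCR, a regulator of endodermis identity, was above 0 in every library, and MYB36, which drives Casparian strip genes, was listed at 0 in 11. CASP1, the membrane protein of the Casparian strip, was listed at 0 in 17 of the 27 libraries and LBD16, a regulator of lateral root founding, in 25. The summed level of the 4 ran between 21.4 and 27.2 CPM at 0w, 18.8 and 22.0 CPM at 4w, 10.5 and 17.6 CPM at 8w, 9.36 and 15.2 CPM at 12w, 13.9 and 19.5 CPM at 16w and 8.78 and 13.9 CPM at 21w. Of the 3 markers tested, 1 was called lower and 1 higher at 16w against 0w, so there the sum joins genes of opposite direction. At 12w 2 were called lower and none higher, and at 4w, 8w and 21w none was called. In each returned group 1 was called lower than at 0w and none higher. The part of these markers in the LAC3 levels was not tested.

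LAC5 and LAC7 had their highest group means in returned plants, with wide spread. LAC5, a relative of LAC12 with a part in lignification, measured 21.2, 0 and 13.8 CPM at 0w, 0, 4.59 and 0 CPM at 16w, 12.8, 24.1 and 10.1 CPM at 21w, 56.5, 78.8 and 51.4 CPM at 12w+5dLD, 107, 75.9 and 39.6 CPM at 16w+5dLD and 150, 53.0 and 7.75 CPM at 21w+5dLD. The 12w+5dLD and 16w+5dLD libraries all lay above the 0w libraries, and 21w+5dLD replicate 3 below 0w replicates 1 and 3. LAC5 passed the test in no comparison, and its smallest adjusted p among the returns was at 16w+5dLD against 16w (0.0530, log2 fold change 5.61, SE 2.1). That comparison passed by DESeq2 (adjusted p = 0.0142), with the replicate block (0.0471) and without 16w replicate 2 (0.0174), the only 16w library with LAC5 above 0. At 4w, 8w and 12w it lay between 0 and 42.3 CPM.

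LAC7 measured 0, 8.99 and 0 CPM at 0w, 22.4, 7.08 and 0 CPM at 4w, 8.48, 9.65 and 14.2 CPM at 8w, 23.7, 66.5 and 10.8 CPM at 12w, 13.1, 8.34 and 12.6 CPM at 16w, 78.9, 48.8 and 23.6 CPM at 21w, 78.3, 77.6 and 42.5 CPM at 12w+5dLD, 172, 156 and 41.4 CPM at 16w+5dLD and 186, 124 and 7.85 CPM at 21w+5dLD. All 12w, 21w, 12w+5dLD and 16w+5dLD libraries lay above all 0w libraries. In cold, LAC7 did not pass against 0w at 12w (3.47 on the log2 scale, adjusted p = 0.0866) or 21w (4.06, adjusted p = 0.0611). The 21w comparison passed by DESeq2 (adjusted p = 0.0241) and with the replicate block (0.0370). LAC7 rose against 0w at 16w+5dLD (5.34 on the log2 scale, SE 1.67, adjusted p = 0.0316) and at 21w+5dLD (5.13, SE 1.65, adjusted p = 0.0355). The groups overlapped at 21w+5dLD, where replicate 3 lay below 0w replicate 2. The call at 16w+5dLD was lost without 0w replicate 1 (adjusted p = 0.0947) or 3 (0.0865) and without 16w+5dLD replicate 1 (0.0666) or 2 (0.0664). The call at 21w+5dLD was lost without 0w replicate 1 (0.105) or 3 (0.0900) and without 21w+5dLD replicate 1 (0.0777) or 2 (0.0576). With only the groups compared both were lost (0.157 at 16w+5dLD, 0.259 at 21w+5dLD). LAC7 passed in no comparison of returned plants with the end of cold, with a log2 fold change of 3.44 at 16w+5dLD against 16w (adjusted p = 0.101, or 0.0150 with only the groups compared).

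Of the other laccases, LAC1 (Aa_G190840) and LAC14 (Aa_G130540) were matched, and LAC8, LAC9, LAC13, LAC15 and LAC16 were not analysed here. LAC14 was listed at 0 in all 27 libraries. LAC1 measured 109, 84.2 and 102 CPM at 12w+5dLD, 54.6, 42.1 and 79.6 CPM at 16w+5dLD and 36.5, 53.7 and 0 CPM at 21w+5dLD, with 18.6, 28.4 and 0 CPM at 0w. Like LAC5 and LAC7 it was highest in returned plants. It passed the test in no comparison, with adjusted p of 0.204 at 12w+5dLD against 12w and 0.124 at 16w+5dLD against 16w.

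Counted over the family, members were called lower than 0w in every cold group and none was called higher. At 4w, 2 of the 7 members were called lower, against 7.39% of all genes tested, and at 8w also 2, against 9.11%. At 12w, 3 were called lower (LAC4, LAC17 and LAC10), against 9.38% of all genes, and at 16w also 3 (LAC4, LAC17 and LAC3), against 10.2%. At 21w LAC4 alone was called, against 7.14%. The median log2 fold change of the 7 members was −2.80 for 4w, −4.00 for 8w, −4.63 for 12w, −2.95 for 16w and −1.43 for 21w, where the median over all genes lay between −0.02 and 0.00. At 12w the median was also −4.63 with LAC10 at its bound of 3 counts per library, and −4.11 with a floor of 50 counts. By edgeR no member was called higher than 0w in any cold group, beside 5.6% of genes for 4w, 6.26% for 8w, 7.07% for 12w, 7.07% for 16w and 5.14% for 21w, while DESeq2 called 1 higher at 21w and none in the other cold groups. At an unadjusted p under 0.05, in either direction, 4 members stood for 4w, 4 for 8w, 6 for 12w, 3 for 16w and 4 for 21w. The share of all genes at that unadjusted p was not computed. By adjusted p alone, without the 2-fold size, 2829 (21w) to 3598 (16w) of the 19337 genes were lower. Those higher by adjusted p alone numbered 2581 (21w) to 3382 (16w). Members with every library below every 0w library numbered 4 for 4w, 4 for 8w, 5 for 12w, 5 for 16w and 4 for 21w, beside 28.1%, 28.7%, 28.5%, 29.5% and 26.7% of all genes in these groups. Those with every library above numbered 1 for 4w (LAC3), none for 8w, 1 for 12w (LAC7), none for 16w and 1 for 21w (LAC7), beside 25%, 26.1%, 25.9%, 27.1% and 23.1%.

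On return, 2 members were called higher at 12w+5dLD than at 12w (LAC4 and LAC17), against 5.77% of all genes, and 2 at 16w+5dLD than at 16w (LAC3 and LAC4), against 6.83%. No member was called lower by edgeR or DESeq2 in either comparison, where 4.88% and 4.56% of all genes were, and at an unadjusted p under 0.05 stood 3 and 4 members. By adjusted p alone, 2491 genes were higher and 2611 lower at 12w+5dLD, and 2696 higher and 2586 lower at 16w+5dLD, of 19337. At 12w+5dLD 2 members lay above 12w in every library, which was so for 22.8% of all genes. All 7 members lay above 16w in every 16w+5dLD library, which was so for 24.7% of all genes. At 21w+5dLD against 21w no member was called by edgeR or DESeq2 and none had an unadjusted p under 0.05, and 0.217% of all genes were called higher and 0.176% lower. These shares depend on 21w+5dLD replicate 3, the library closer to 21w: without it 580 genes were called higher and 560 lower, against 42 and 34 with it, and still no member. No member lay above 21w in every 21w+5dLD library, beside 6.83% of all genes. Against 0w no member was called at 12w+5dLD by edgeR, with 2 at an unadjusted p under 0.05 and 1 called by DESeq2 in each direction, beside 3.64% of genes called lower and 3.24% higher. LAC7 alone was called higher at 16w+5dLD (beside 4.2% of genes) and 21w+5dLD (beside 3.69%), and no member lower (beside 3.54% and 4.04%), where DESeq2 called none and 1. Of the 7 members, 3 differed among the 9 groups by the F test, namely LAC3 (adjusted p = 6.61e-06), LAC4 (1.50e-05) and LAC17 (0.0101), beside 51% of all genes tested.

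**Figure D2:**
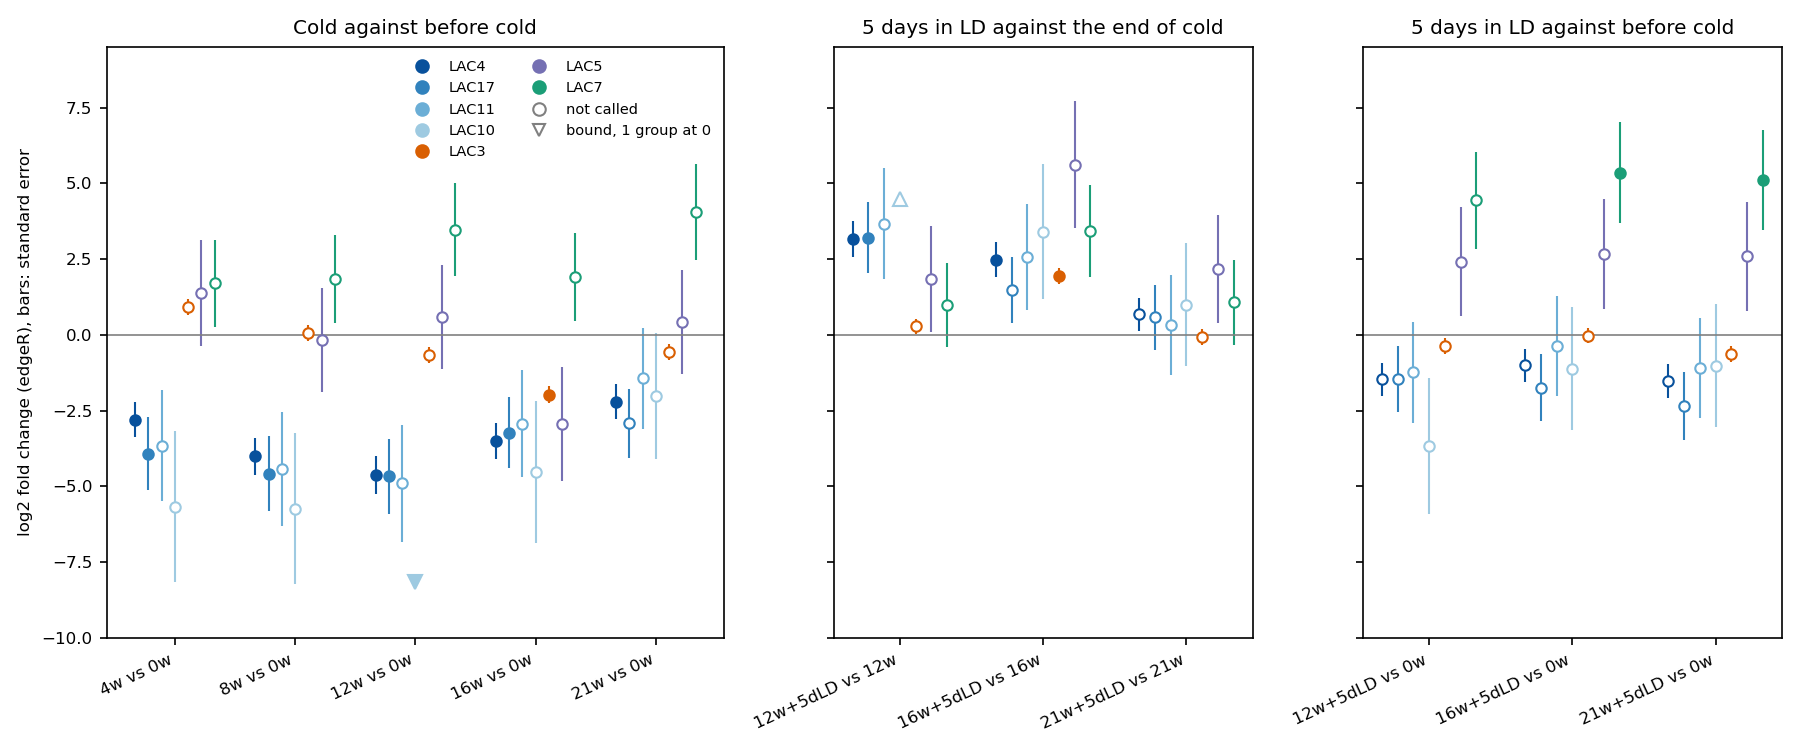
Fitted log2 fold change with its standard error for each laccase homolog in each comparison, with called values drawn filled and a triangle where a group is at 0 in all libraries and the value is a bound. LAC4 is called in all 5 cold groups against 0w, and no member is called at 21w+5dLD against 21w.

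LAC4 was higher at 21w than at its lowest levels in cold. It was 3.48-fold higher at 21w than at 8w (1.80 on the log2 scale, SE 0.56, adjusted p = 0.0458) and 5.39-fold higher at 21w than at 12w (2.43, SE 0.57, adjusted p = 0.0130). LAC4 was the only member called higher at 21w than at 8w and than at 12w, where 2.18% and 1.55% of all genes were, and LAC3 the only one called higher at 21w than at 16w, where 0.848% were. LAC3 was also the only one called lower at 21w, in the comparison with 4w, beside 2.36% of all genes lower and 2.16% higher. In the comparisons of 21w with 8w, 12w and 16w, 2%, 1.36% and 0.729% of genes were called lower. The LAC4 call against 8w was lost without 8w replicate 1 (adjusted p = 0.161) or 2 (0.0843) and without 21w replicate 1 (0.0682), 2 (0.145) or 3 (0.0626), and the call against 12w without 12w replicate 1 (0.0656). With only the groups compared both LAC4 calls were lost (0.176 and 0.121), and so were those of LAC3 at 21w against 4w (0.0742) and 16w (0.168). At 21w against 16w the LAC4 log2 fold change was 1.29 (adjusted p = 0.186).

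Monolignol synthesis genes make the substrate of laccases. For this list and the next ones, the shares of all genes called in each comparison are those given above beside the laccases. Of 13 genes of monolignol synthesis tested, 7 fell for 4w, 11 for 8w, 12 for 12w, 11 for 16w and 4 for 21w, none rose, and the median log2 fold change at 12w was −1.62. PAL1 and PAL4, phenylalanine ammonia-lyases that open the phenylpropanoid pathway, fell at 12w, with log2 fold changes of −2.54 (SE 0.27, adjusted p = 1.21e-06) and −2.76 (SE 0.24, adjusted p = 1.58e-07). CCOAOMT1, a methyltransferase of the pathway, averaged 179 ± 46.4 CPM at 12w and 882 ± 15.7 CPM at 0w (SD, n = 3 each). On return, 10 of the 13 rose at 12w+5dLD, 7 at 16w+5dLD and none at 21w+5dLD against the end of cold. PAL1 averaged 672 ± 134 CPM at 12w+5dLD and 145 ± 48.5 CPM at 12w, and COMT1, the other methyltransferase, 969 ± 161 and 280 ± 91.2 CPM (SD, n = 3 each).

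Class III peroxidases are the other enzymes that oxidise monolignols, with hydrogen peroxide in place of oxygen. Of 7 tested, 3 fell at 4w, 8w and 12w each and 2 at 16w and 21w each, and none rose. PRX64 had the largest log2 fold change of those that fell at 12w, with 1.22 ± 1.13 CPM at 12w and 292 ± 9.93 CPM at 0w (SD, n = 3 each, log2 fold change −7.87, SE 1.11, adjusted p = 1.93e-05), and PRX66 and PRX52 also fell at 12w. At 12w+5dLD against 12w 4 of the 7 rose. PRX52 averaged 1574 ± 289 CPM at 12w+5dLD and 197 ± 123 CPM at 12w (SD, n = 3 each, log2 fold change 3.00, SE 0.70, adjusted p = 0.00351). PRX64 also rose, with 30.6 ± 17 CPM at 12w+5dLD (4.62 on the log2 scale, SE 0.97, adjusted p = 0.00147). At 16w+5dLD against 16w 2 of the 7 rose, and none at 21w+5dLD against 21w. PRX66 is listed at 0 in 12w replicates 1 and 3 and PRX64 in 12w replicate 3, so the size of their changes is uncertain.

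Of 13 genes for the polysaccharides and proteins of the secondary wall, 10 fell at 4w, 11 at 8w, 12w and 16w each and 8 at 21w, and 10 rose at 12w+5dLD, 8 at 16w+5dLD and none at 21w+5dLD against the end of cold. The median log2 fold change was −4.70 at 12w and 2.68 at 12w+5dLD. CESA8, a cellulose synthase of secondary walls, averaged 14.5 ± 12.7 CPM at 12w and 575 ± 66.8 CPM at 0w (SD, n = 3 each). GAUT12 (IRX8), needed for xylan, had a log2 fold change of −6.01 at 12w (SE 1.20, adjusted p = 0.000631), and FLA11, a fasciclin-like protein of fibres and vessels, one of −5.38 (SE 0.59, adjusted p = 1.41e-06). At 12w+5dLD against 12w these 3 rose, with log2 fold changes of 3.59, 4.23 and 3.39. GAUT12 is listed at 0 in 12w replicates 1 and 3 and CESA8 in 12w replicate 1, so the size of their changes is uncertain.

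Of 12 regulators of secondary wall formation, 5 fell and 1 rose at 4w, 7 fell and 1 rose at 8w and also at 12w, 6 fell and 1 rose at 16w and 3 fell at 21w. NST1, a NAC factor that switches on fibre walls, averaged 0.815 ± 1.41 CPM at 12w and 43.1 ± 9.98 CPM at 0w (SD, n = 3 each), and MYB46 and MYB85, which act below it, fell with log2 fold changes of −4.67 (adjusted p = 0.00371) and −3.96 (adjusted p = 0.0148). The 1 that rose was SND3, another NAC factor, with 88.9 ± 6.69 CPM at 12w and 36.9 ± 2.57 CPM at 0w (SD, n = 3 each, log2 fold change 1.27, SE 0.23, adjusted p = 0.000224). At 12w+5dLD against 12w 4 rose, NST1, MYB85 and MYB63, a MYB factor of lignin genes, among them, and SND3 fell (log2 fold change −1.25, SE 0.23, adjusted p = 0.000486). At 12w, NST1 is listed at 0 in replicates 1 and 2, MYB46 in replicate 1 and MYB85 in replicate 3.

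Of 10 genes of copper supply and of the copper microRNA pathway tested, 1 rose at 4w, beside 5.6% of all genes. At 8w 2 rose (beside 6.26%) and at 12w 1 rose (beside 7.07%). At 16w 1 rose (beside 7.07%) and 2 fell (beside 10.2%), and at 21w 2 fell (beside 7.14%). On return 1 fell at 12w+5dLD against 12w (beside 4.88%) and 1 rose at 16w+5dLD against 16w (beside 6.83%). With 10 genes, counts this small cannot be set apart from these shares. The median log2 fold change at 12w against 0w was −0.23. The 1 called higher at 12w was COPT1, a copper transporter of the plasma membrane, with 5.52 ± 0.767 CPM at 12w and 2.58 ± 0.384 CPM at 0w (SD, n = 3 each, adjusted p = 0.0144). ARPN, a plantacyanin and a miR408 target in *A. thaliana*, fell in 12w+5dLD against 12w plants, with 2.27 ± 0.963 CPM at 12w+5dLD and 8.93 ± 3.29 CPM at 12w (SD, n = 3 each, adjusted p = 0.00166). LAC3, named as a miR408 target above, did not pass in that comparison.

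**Figure D3:**
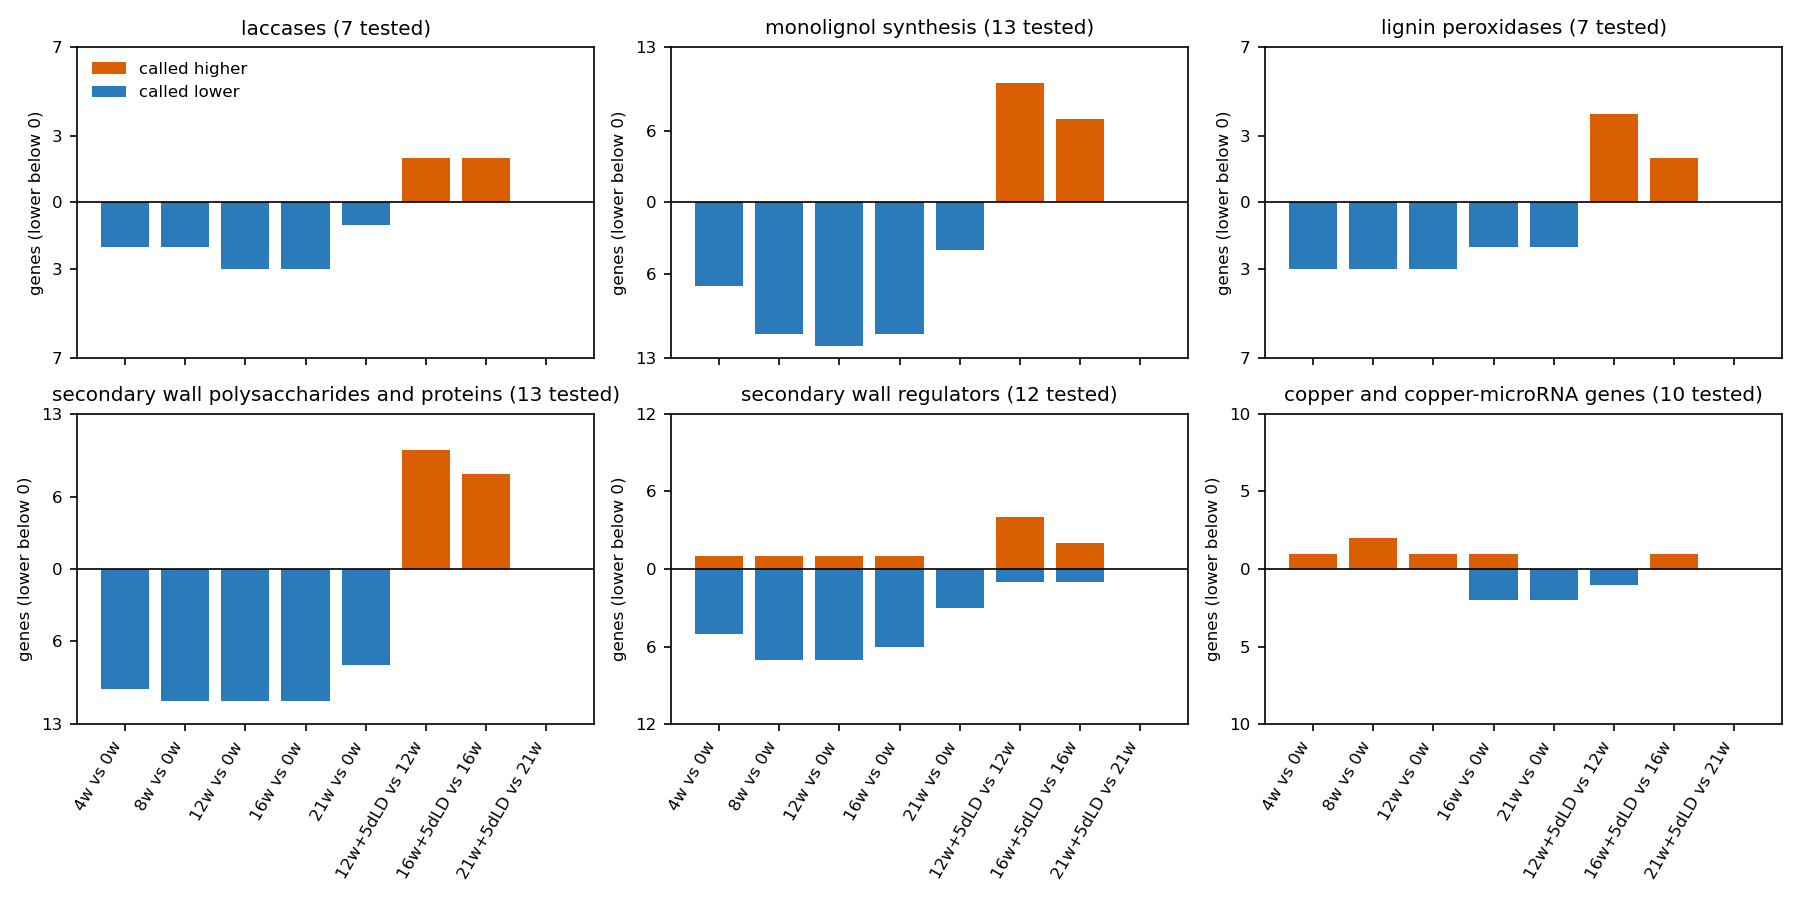
Number of genes called lower and higher in each gene list (monolignol synthesis, lignin peroxidases, secondary wall polysaccharides and proteins, secondary wall regulators, copper genes) and among the laccases, by comparison. At 12w against 0w 12 of 13 monolignol genes and 11 of 13 wall genes are called lower, and none of 10 copper genes, beside 9.38% of all genes tested.

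Markers of xylem and fibre were lowest at 12w, as were LAC4, LAC17, LAC11 and LAC10 but not LAC3, LAC5 or LAC7. All 6 of these markers are also among the 13 secondary wall genes above. Their sum thus restates that result and is no separate measure of xylem content. Among them CESA4, CESA7 and CESA8 are listed at 0 in 12w replicate 1. The summed level of XCP1, XCP2, CESA4, CESA7, CESA8 and FLA11 ran between 2539 and 3457 CPM at 0w, 404 and 524 CPM at 4w, 151 and 303 CPM at 8w, 18.3 and 141 CPM at 12w, 288 and 349 CPM at 16w and 379 and 800 CPM at 21w. In returned plants it ran between 175 and 1404 CPM at 12w+5dLD, 1129 and 1907 CPM at 16w+5dLD and 691 and 1526 CPM at 21w+5dLD. The summed phloem markers (3 genes) ran between 118 and 149 CPM at 12w and between 260 and 295 CPM at 0w, those of the cambium (3 genes) between 434 and 508 CPM at 12w and between 534 and 582 CPM at 0w, and those of the epidermis (3 genes) between 10.3 and 13.6 CPM at 12w and between 38.0 and 49.9 CPM at 0w. Of the epidermis markers, ATML1 is listed at 0 in every 12w library and PDF1 in 12w replicate 3. The size of the epidermis change is thus uncertain. The one green cortex marker matched, LHCB2.1, lay between 372 and 448 CPM at 12w and between 345 and 403 CPM at 0w. The part of these cell types in the laccase levels was not tested.

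The genes most like LAC4, LAC11 and LAC17 in pattern were looked for over the groups. Likeness was measured as Pearson's r of log2(CPM + 1) over the 9 group means, among 12080 genes with a homolog and at least 10 CPM in 1 group. For LAC4 the 5 nearest were the homologs of AT3G62020 (0.997), GAUT12 (0.996), COBL4 (0.994), AT1G09440 (0.994) and AT1G13635 (0.993), of which COBL4 is a COBRA-like protein of secondary wall cellulose. For LAC11 they were XCP1 (0.995) and XCP2 (0.992), the cysteine proteases of xylem vessels, and the homologs of AT3G26125 (0.989), AT1G30900 (0.987) and AT3G02520 (0.984). For LAC17 they were the homologs of AT5G20360 (0.987), AT1G27970 (0.983), AT3G43270 (0.982), AT1G05170 (0.980) and AT3G15990 (0.979). None of the genes nearest to LAC17 remained among its 5 nearest when the 27 libraries replaced the group means, against 3 of 5 for LAC4 and for LAC11. The correlations describe 9 points from shared libraries.

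**Figure D4:**
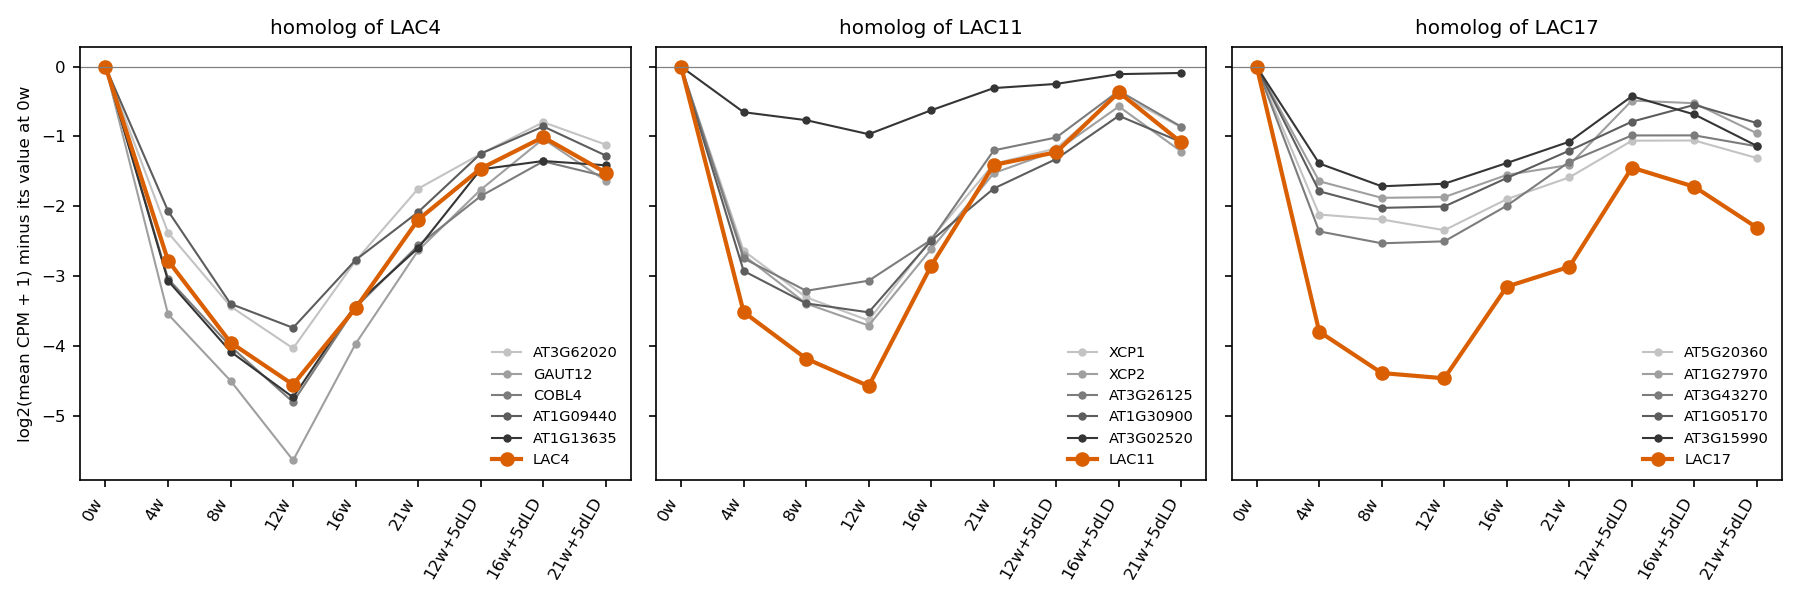
Group means of LAC4, LAC11 and LAC17 and of the 5 genes nearest to each in pattern, over the 9 groups, on the log2(CPM + 1) scale. GAUT12, nearest to LAC4 among the named genes at r = 0.996, and XCP1, nearest to LAC11 at r = 0.995, have their lowest group mean at 12w as these laccases do.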

How the data were processed

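PolyA RNA libraries of the main stem were sequenced by the authors as single reads. Per the labels, the deposited counts per gene were made by the authors with HISAT2 and StringTie. For versions, genome build, annotation and counting strand, the entry is: not given in the sources used here. Such counts derived from transcript coverage are whole numbers but may list a gene at 0, and reads of near-identical paralogs could be split between them. The authors' comparison sheets hold log2 fold changes and adjusted p-values of genes they called with DESeq2; only their identifier columns were read, to fill blank homologs, which added no member.

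Counts were analysed in R 4.3.3 with edgeR 4.0.16 (TMM, filterByExpr, 1 quasi-likelihood fit of 9 group means, 18 residual degrees of freedom) and limma 3.58.1. Of 21641 genes 19337 were tested, with Benjamini-Hochberg adjustment over all of them. Calls needed at least 2-fold and an adjusted p below 0.05. SE is the log2 fold change divided by the root of F. Alternatives were DESeq2 1.42.0, DESeq2 size factors, upper-quartile scaling, no or a stricter filter, adjusted p alone, only the groups compared, a replicate block and leaving out each library. The steps were tested on simulated counts. All matched laccases were named, and of each list up to 3 called genes per direction at 12w against 0w and 12w+5dLD against 12w with the largest fold change and a group mean of at least 5 CPM. The members and gene lists were chosen with earlier results of these data known. Homologs of HCT, CCR1, PRX2, PRX47, IRX10, MYB58 and MYB103 were not analysed here. The p-values rest on the spread between pooled-stem libraries within groups of 3, which the main fit estimates over all 9 groups together.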

Additional observations from a re-analysis of the deposited data

Results flagged for a closer look

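The response of LAC3 to 5 days in LD differed between cold durations. It was −2.02 on the log2 scale after 21 compared with 16 weeks of cold (interaction term, edgeR, SE 0.37, adjusted p = 0.0165). The means behind it were 44.0 ± 5.49 CPM at 21w+5dLD and 46.2 ± 18.5 CPM at 21w, and 67.0 ± 9.71 CPM at 16w+5dLD and 17.4 ± 5.91 CPM at 16w (SD, n = 3 each). All 16w+5dLD libraries lay above all 16w libraries, while 21w+5dLD and 21w overlapped, and 21w replicate 3, at 24.9 CPM, lay below both other 21w libraries. DESeq2 gave −2.03 (adjusted p = 8.50e-06), while the fit of only the groups compared, with fewer libraries, called 0 members. Leaving out single libraries gave −2.33 to −1.81, with the call lost without 21w replicate 1 (adjusted p = 0.0515).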

How the results depend on the processing

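Of 1469 member results under alternatives, 1372 kept direction and side of the threshold, 39 passed it, 36 lost it and 22 changed sign. DESeq2 size factors, upper-quartile scaling and the stricter filter changed none of their 105 each. Counts of called members follow, with the reported count in brackets. DESeq2 called 4 lower at 12w (3), 3 higher at 12w+5dLD against 12w (2) and at 16w+5dLD against 16w (2), 4 differing among the 9 groups (3), 2 lower at 21w (1), 1 higher at 21w (0), 1 lower and 1 higher at 12w+5dLD against 0w (0 each), 1 lower at 21w+5dLD against 0w (0), 2 higher at 21w against 12w (1), and 2 whose return differed between 16 and 12 weeks (0) and 2 between 21 and 12 weeks (0). LAC10, at 0 in every 12w library, is among these DESeq2 calls at 12w+5dLD against 12w, at 21w against 12w and in both differences of return. Its fold changes there (log2 22.8 and 24.5 in the first 2) have no estimable size. Without a filter 1 was higher at 12w+5dLD against 12w (2) and 0 at 21w against 8w (1). Adjusted p alone called 1 higher at 4w (0). With only the groups compared, there were 1 lower at 8w (2), 2 lower at 12w (3), 4 lower at 16w (3), 4 lower at 21w (1), 1 higher at 12w+5dLD against 12w (2), 5 higher at 16w+5dLD against 16w (2), 1 lower (0) and 0 higher (1) at 16w+5dLD against 0w, 2 lower (0) and 0 higher (1) at 21w+5dLD against 0w, 0 lower at 21w against 4w (1), 0 higher at 21w against 8w, 12w and 16w (1 each), 1 differing among cold durations (2) and 0 whose return differed between 21 and 16 weeks (1). Those fits hold only the libraries of the groups compared. Of 105 member results in them, 10 passed the threshold, 9 lost it and 1 changed sign. The cause was not tested.

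After the mean of its group was taken off each library, same-numbered libraries correlated at −0.0581 to 0.0543 over 45 pairs in 15 comparisons. These values gave no sign that the replicate numbers pair the libraries. Differently numbered libraries were not correlated in this way for comparison. With the replicate block, 1 member was called higher at 21w against 0w (0) and 1 at 12w+5dLD against 0w (0), 3 lower at 8w (2, with LAC10), 3 higher at 16w+5dLD against 16w (2, with LAC5) and 4 differing among the 9 groups (3), and LAC5 changed sign, without a call, at 12w against 0w (−0.35, reported 0.58), 21w against 0w (−0.0012, reported 0.43) and 21w against 12w (0.34, reported −0.16). LAC3 at 16w+5dLD against 0w was 0.0145 with only the groups compared (reported −0.03). Over all genes, 21w+5dLD against 21w had 34 lower and 42 higher as reported, 12 and 1 with the block, 21 and 15 without a filter, 73 and 92 by adjusted p alone and 232 and 409 by DESeq2. Without 21w+5dLD replicate 3 there were 560 and 580, and without each other library of these groups 8 to 26 lower and 3 to 10 higher.

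Leaving out each library in turn gave lower calls against 0w of 1 to 3 (4w), 2 to 3 (8w), 3 to 4 (12w), 2 to 4 (16w), 1 to 1 (21w) and 0 to 1 (12w+5dLD). Higher calls were 0 to 1 at 4w, 8w, 12w, 16w and 21w, at 12w+5dLD, 16w+5dLD and 21w+5dLD against 0w and at 21w against 8w, 0 to 2 at 21w against 12w, 1 to 3 at 12w+5dLD against 12w and 2 to 3 at 16w+5dLD against 16w. Among the 9 groups 3 to 5 members differed and among the cold durations 1 to 2, and 0 to 1 differed in return between 21 and 12 and between 21 and 16 weeks. Signs changed, without a call, in LAC3 at 8w (−0.0886 to 0.136), 21w against 12w (−0.11 to 0.40), 16w+5dLD against 0w (−0.17 to 0.0817) and 21w+5dLD against 21w (−0.37 to 0.135), and in LAC5 at 8w (−0.76 to 0.58), 12w (−1.20 to 1.33), 21w (−0.16 to 1.18) and 21w against 12w (−0.73 to 1.62). LAC10 at 12w+5dLD against 12w gave no value without 12w+5dLD replicate 3, since all libraries left are at 0.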
